A study of Homo sapiens with 4 samples.

Results

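The G2/M and mitosis genes are 42 human genes whose products act between the end of DNA replication and the separation of daughter cells. They were taken as a given list, and each gene was read from its brightest probe set among those annotated to a single gene symbol. All 42 were present among the 19775 genes with such a probe set, and all 42 passed the filter on signal that kept 12066 genes. Of the 12066, 7744 had a mean signal no lower than the 75th percentile of the probe sets and are called bright genes here, and 40 of the 42 members were among them. PLK1 and INCENP were the exceptions. Members fall into 6 groups by role, namely 9 cyclins, kinases and phosphatases, 12 kinetochore and checkpoint genes, 10 spindle motors and spindle proteins, 5 cytokinesis and chromosomal passenger genes, 3 genes of the anaphase promoting complex and its substrates, and 3 genes of chromosome structure, transcription and proliferation.

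RNA was measured on 4 Affymetrix arrays, 1 per group, in the breast cancer line SK-BR-3, an established cell line that has amplified HER2 and carries mutant p53. The first group carried p53 shRNA and also received Pontin siRNA (called both knockdowns below), the second received Pontin siRNA and carried the control shRNA vector, the third carried p53 shRNA alone and the fourth carried control shRNA alone. All cells had been selected with puromycin after shRNA transfection, and RNA was taken 24 h after the siRNA step, 200 ng per array. The arms without Pontin siRNA are titled sicon, which the labels do not spell out, and the labels do not say whether the arms came from separately selected populations or clones. With 1 array per group there is no replicate within a group, and differences are described by their size. Each knockdown was read in 2 pairs that have no array in common, the first without and the second with the other knockdown. For p53 shRNA the first pair is p53 shRNA over control shRNA and the second is both knockdowns over Pontin siRNA. For Pontin siRNA the first pair is Pontin siRNA over control shRNA and the second is both knockdowns over p53 shRNA. Ratios are given on the log2 scale, and a gene was called only where both pairs had the same sign and were each at least 1.5-fold, which is 0.585 in log2.

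Entry into mitosis is driven by cyclin B bound to the kinase CDK1, which is held inactive by WEE1 and released by CDC25 phosphatases. The spindle checkpoint then delays anaphase until every kinetochore is attached, after which the anaphase promoting complex marks cyclin B and securin for destruction. Transcripts of these genes accumulate together in G2, and many of their promoters hold CCAAT boxes, bound by NF-Y, and CHR elements, through which MuvB complexes with MYB proteins or FOXM1 act. Wild-type p53 lowers many of them through p21 and the DREAM complex, and mutant p53 has been reported to associate with NF-Y. Pontin, the AAA+ ATPase encoded by RUVBL1, works with Reptin in chromatin remodelling and protein assembly complexes. RNA came from whole cultures, so fewer cells in G2 or mitosis and less RNA per cell cannot be told apart.

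Promoter sequences of 4 members from the centre of this pathway are shown because they carry the elements that the list shares and that its choice did not use. They are RefSeq sequences of build GRCh38.p14, all on the plus strand, and cover the 250 bases before the annotated start, at chr5:69166900-69167149 for CCNB1, chr15:59104896-59105145 for CCNB2, chr10:60778081-60778330 for CDK1 (the more upstream of its 2 starts) and chr16:23678639-23678888 for PLK1. Capitals mark the CCAAT box and the CHR letters TTTGAA.
CCNB1: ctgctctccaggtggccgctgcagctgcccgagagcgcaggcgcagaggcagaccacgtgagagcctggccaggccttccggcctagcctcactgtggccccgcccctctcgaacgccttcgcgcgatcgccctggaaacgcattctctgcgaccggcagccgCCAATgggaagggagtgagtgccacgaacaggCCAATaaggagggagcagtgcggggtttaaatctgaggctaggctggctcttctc
CCNB2: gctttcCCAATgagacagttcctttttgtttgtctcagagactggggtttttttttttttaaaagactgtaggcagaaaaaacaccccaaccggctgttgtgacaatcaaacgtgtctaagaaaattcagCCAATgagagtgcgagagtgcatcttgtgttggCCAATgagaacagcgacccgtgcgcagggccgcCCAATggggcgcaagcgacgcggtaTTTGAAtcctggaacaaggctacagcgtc
CDK1: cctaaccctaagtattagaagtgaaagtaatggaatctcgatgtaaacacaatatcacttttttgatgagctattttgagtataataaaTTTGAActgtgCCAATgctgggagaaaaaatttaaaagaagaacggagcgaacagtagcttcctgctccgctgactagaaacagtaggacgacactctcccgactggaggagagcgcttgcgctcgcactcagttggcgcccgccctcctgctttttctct
PLK1: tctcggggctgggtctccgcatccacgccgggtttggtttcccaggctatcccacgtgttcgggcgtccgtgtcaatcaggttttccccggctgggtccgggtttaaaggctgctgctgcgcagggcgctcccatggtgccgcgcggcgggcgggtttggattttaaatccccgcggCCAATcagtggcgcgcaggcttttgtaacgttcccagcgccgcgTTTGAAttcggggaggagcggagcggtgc
CCNB1 has CCAAT boxes at -87 and -55, counted in bases before the start, and no CHR letters in this stretch. CCNB2 has 4 CCAAT boxes, at -244, -120, -87 and -54, and a CHR at -29. PLK1 has a CCAAT box at -73 and a CHR at -29, the same distance as in CCNB2. CDK1 has a CCAAT box at -150 and a CHR at -161. These belong to the printed start only. The window of the other CDK1 start, not printed, held 2 CCAAT and 3 CHR matches in the search described next.

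The search took CCAAT on both strands and, for the CHR, TTTGAA and TTCGAA on both strands, in windows from 250 bases before to 50 after each start. These motifs share no overlapping match, and TTCGAA reads the same on both strands. Windows were found for 35 of the 42 members, and AURKA, BIRC5, BUB3, FOXM1, TPX2, TTK and UBE2C had none. CCAAT was present in 29 of 35 members (82.9%), against 39.7% of all 27305 genes with a window and 43.4% of the 9819 such genes that were kept on these arrays. At least 2 CCAAT boxes were present in 20 members (57.1%), against 12.9% of all genes. The CHR letters were present in 27 members (77.1%), against 19.5% of all genes and 15.8% of the genes kept. Both motifs were present in 23 members (65.7%), against 7.85% of all genes and 6.72% of the genes kept. ANLN, BUB1B, NDC80 and NUF2 had a CHR without CCAAT, and CENPE and KIF2C had neither. A match describes letters in a window and does not show binding in these cells.

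The siRNA target was lower in both Pontin pairs. RUVBL1 had signals of 65.8 with both knockdowns, 127.4 with Pontin siRNA, 398.2 with p53 shRNA and 477.7 with control shRNA, or -1.91 and -2.60 on the log2 scale in the Pontin pairs. RUVBL2, which encodes Reptin, was at 0.19 and 0.08. Of 10 markers of luminal cells and SK-BR-3, 9 were over the bright level of 110.3 on every array, and CDH1, which encodes E-cadherin, was at 1.8 to 13.0. Summed signals of these markers were 47592.5 with both knockdowns, 42090.8 with Pontin siRNA, 43372.2 with p53 shRNA and 41203.5 with control shRNA. The 8 measured basal or mesenchymal markers summed to 214.1 to 268.4, with COL1A1 alone over the bright level, and the 4 measured immune markers to 35.3 to 69.0. The array with both knockdowns, which had the highest luminal sum, also stood apart in its signal scale. Its median signal was 19.6, against 15.9 to 16.5 on the other 3, and its 18 hybridization control probe sets were on average 1.43-fold higher than on the control array. This array enters the second pair of each knockdown and not the first, and its part in the second-pair ratios was not tested.

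With p53 shRNA every member lay within 1.5-fold in both pairs in its brightest probe set, and the ratios leaned slightly below 0. No member was called, against 2.25% of the genes kept and 0.633% of the bright genes. At a lower threshold, 0.32 in log2 in both pairs, there was again no member, against 8.35% of the genes kept and 3.91% of the bright genes. The median log2 ratio of the members was -0.07 in the first pair and -0.09 in the second, and the median of their mean over both pairs was -0.07. Over all genes kept that median was -0.0024, and over bright genes -0.01. Below 0 in both pairs were 22 of 42 members, against 32.2% of the genes kept and 36.6% of the bright genes. Above 0 in both pairs were 6, namely AURKA, CDC25B, KIF11, KIF2C, TOP2A and UBE2C, against 30.6% of the genes kept. The remaining 14 had opposite signs in the pairs. The mean ratios of members spread with an SD of 0.10 between genes, against 0.20 over bright genes and 0.31 over all genes kept.

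Pontin siRNA gave a wider spread with no lean of the list as a whole. No member was called at 1.5-fold in both pairs, against 2.4% of the genes kept and 1.28% of the bright genes. In the brightest probe sets, TTK and CCNA2 were lower by at least 0.32 in both pairs, 2 of 42, against 4.98% of the genes kept and 4.58% of the bright genes. No member was that much higher in both pairs, against 4.79% of the genes kept. The median of the members' mean log2 ratio was 0.0014, and it was 0.0098 over all genes kept and -0.0029 over bright genes. Below 0 in both pairs were 19 members, against 32.0% of the genes kept, and above 0 in both were 17, against 33.9%. The SD between members of the mean ratio was 0.19, against 0.23 over bright genes.

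**Figure D1:**
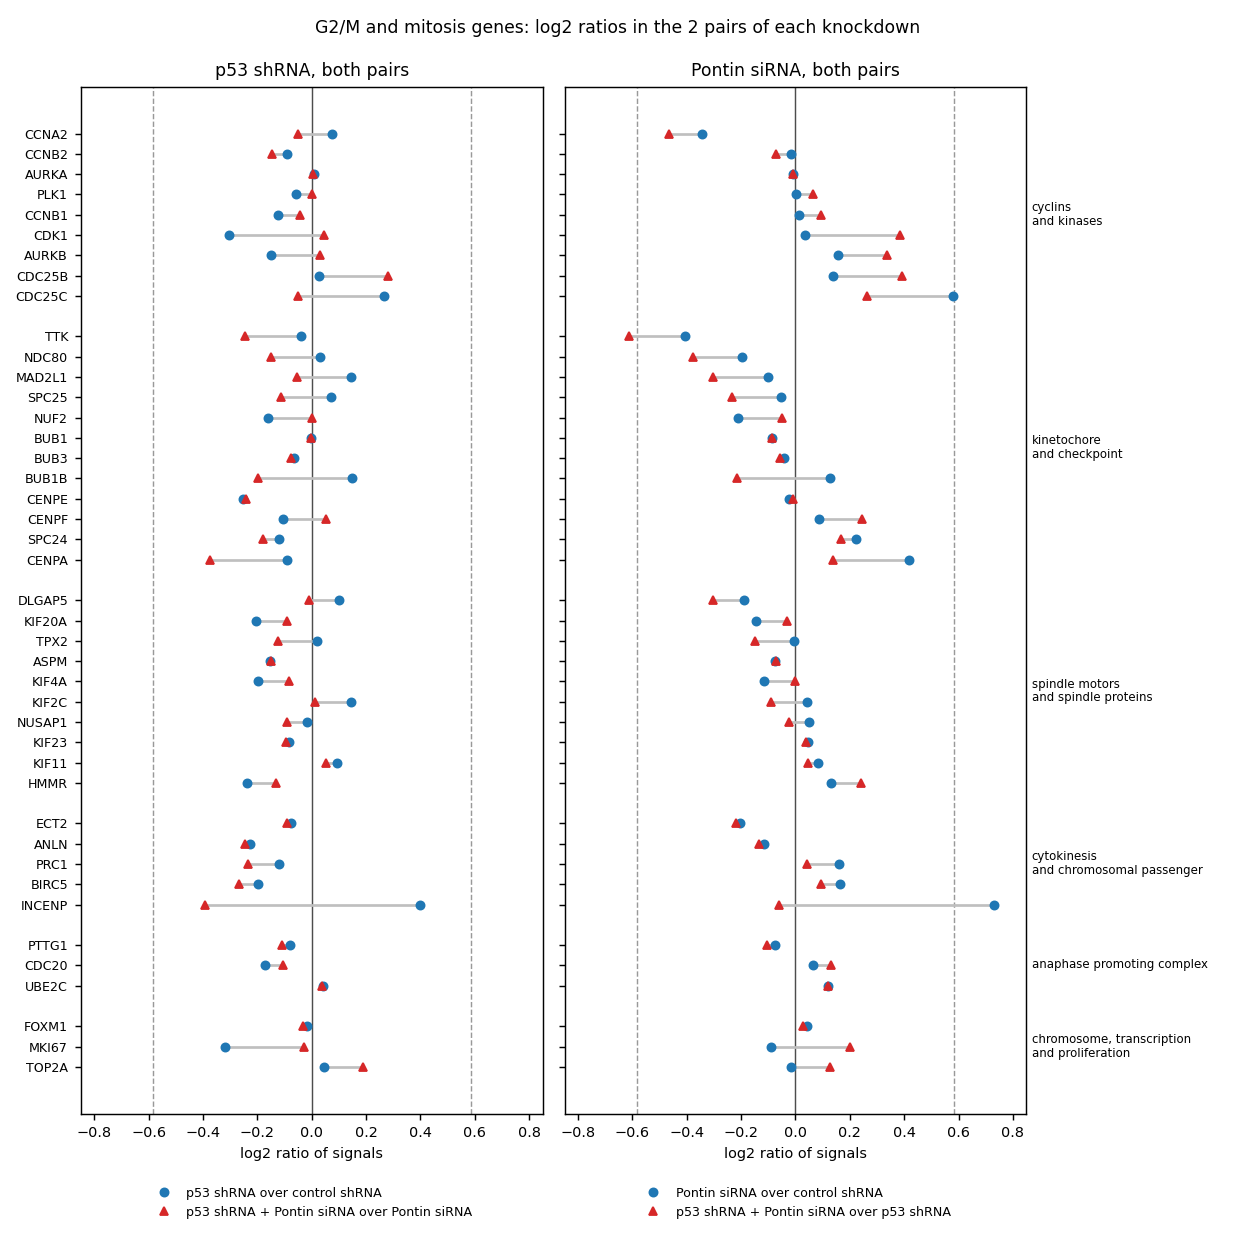
Log2 ratios of the 42 members in the 2 pairs of p53 shRNA (left) and of Pontin siRNA (right), by role. Circles are the first pair and triangles the second, each from 1 array over 1 array, and dashed lines mark 1.5-fold; no member lies beyond a dashed line in both pairs, and TTK and CCNA2 lie lowest for Pontin siRNA.

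**Figure D2:**
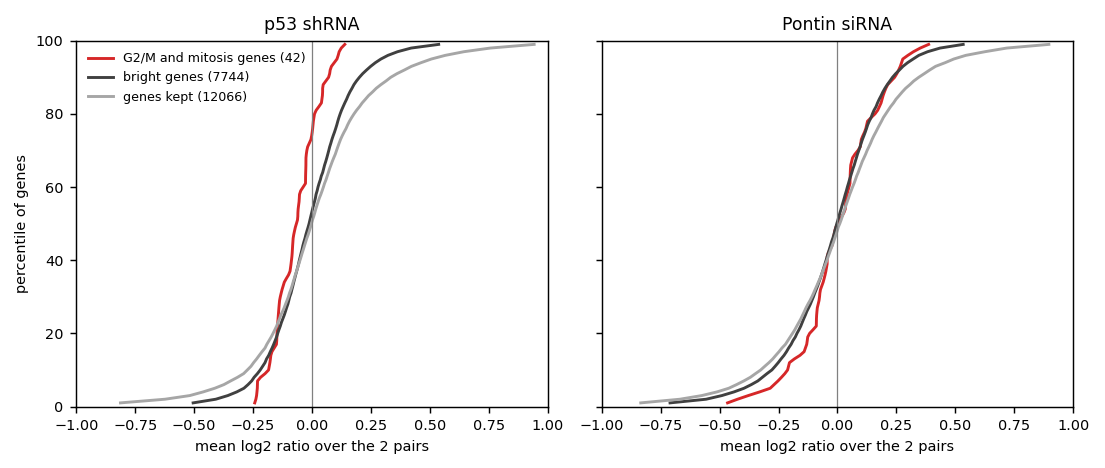
Mean log2 ratio over both pairs (horizontal) against percentile of genes (vertical) for the members, the bright genes and the genes kept. For p53 shRNA the members' curve is steep and its middle is at -0.07; for Pontin siRNA it runs close to that of the bright genes, with its middle at 0.0014.

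Among the cyclins, kinases and phosphatases, CCNA2 had the lowest Pontin ratios in the brightest probe sets. CCNA2, which encodes the cyclin of S phase and early G2, had signals of 721.7 with both knockdowns, 746.8 with Pontin siRNA, 997.4 with p53 shRNA and 948.1 with control shRNA. Both arrays with Pontin siRNA were below both arrays without it, with log2 ratios of -0.34 and -0.47. A second CCNA2 probe set, which was dimmer, had 274.2 with both knockdowns, 354.6 with Pontin siRNA, 310.1 with p53 shRNA and 342.2 with control shRNA. Its Pontin ratios were 0.05 and -0.18, so the lower CCNA2 signal was not seen in both probe sets. CCNB1, the main mitotic cyclin, had 1632.6 with both knockdowns, 1680.9 with Pontin siRNA, 1530.4 with p53 shRNA and 1666.1 with control shRNA, and all 4 arrays lay close together. A second CCNB1 probe set, also dimmer, had 480.8 with both knockdowns, 570.7 with Pontin siRNA, 616.1 with p53 shRNA and 617.5 with control shRNA. Its Pontin ratios were -0.11 and -0.36, lower than those of the second CCNA2 probe set, so the order of the cyclins depended on the probe set. CCNB2, its paralogue, was at -0.02 and -0.07 for Pontin siRNA and at -0.09 and -0.14 for p53 shRNA.

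CDK1, the kinase that cyclin B activates, had signals of 5603.9 with both knockdowns, 5424.0 with Pontin siRNA, 4289.8 with p53 shRNA and 5294.5 with control shRNA. The array with p53 shRNA alone was the low one and the other 3 were alike, which put the p53 pairs at -0.30 and 0.05 and the Pontin pairs at 0.03 and 0.39. Its 3 other probe sets had p53 ratios between -0.31 and -0.10 in the first and second pairs alike, with no ratio above 0. AURKA, the spindle pole kinase, gave a flat profile in its brightest probe set, at 3177.1 with both knockdowns, 3167.2 with Pontin siRNA, 3200.1 with p53 shRNA and 3184.7 with control shRNA. PLK1, the kinase of mitotic entry and cytokinesis, was dim and level, at 49.2 with both knockdowns, 49.1 with Pontin siRNA, 47.1 with p53 shRNA and 49.0 with control shRNA. AURKB, the kinase of the chromosomal passenger complex, had 216.4 with both knockdowns, 212.1 with Pontin siRNA, 171.5 with p53 shRNA and 190.3 with control shRNA. Both AURKB signals with Pontin siRNA were above both without it, at 0.16 and 0.34 on the log2 scale.

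Of the CDC25 phosphatases, CDC25B and CDC25C were above 0 in both Pontin pairs, while CDC25A, which is not a member, was at -0.28 and -0.10. CDC25C, which activates CDK1 at mitotic entry, had signals of 145.2 with both knockdowns, 150.5 with Pontin siRNA, 121.0 with p53 shRNA and 100.6 with control shRNA. Both arrays with Pontin siRNA were above both without it, and the log2 ratios were 0.58 in the first pair, just under 1.5-fold, and 0.26 in the second. A dimmer probe set of CDC25C had 28.4 with both knockdowns, 30.2 with Pontin siRNA, 21.0 with p53 shRNA and 15.5 with control shRNA, in the same order, while a further one under the signal floor of 15.3 gave -1.51 and -2.76. CDC25B, the phosphatase that starts CDK1 activation at centrosomes, had 1735.8 with both knockdowns, 1427.8 with Pontin siRNA, 1322.3 with p53 shRNA and 1298.4 with control shRNA. Its highest signal was on the array with both knockdowns, and its log2 ratios were 0.14 and 0.39 for Pontin siRNA and 0.03 and 0.28 for p53 shRNA.

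In the brightest probe sets, kinetochore and checkpoint genes held the lowest Pontin ratio of the list. Of the 12, 8 were below 0 in both Pontin pairs, against 32.0% of the genes kept and 36.3% of the bright genes. A set of 21 other kinetochore and centromere genes, not members, did not share this. Of those, 5 were below 0 in both Pontin pairs and 8 above 0 in both (33.9% of the genes kept), with a median mean ratio of 0.04. TTK, which encodes the checkpoint kinase MPS1, had signals of 395.9 with both knockdowns, 469.6 with Pontin siRNA, 604.7 with p53 shRNA and 622.0 with control shRNA. The signals with Pontin siRNA lay below those without it, 1.32-fold lower in the first pair and 1.53-fold lower in the second (-0.41 and -0.61 in log2), from its only probe set. NDC80, the microtubule-binding subunit of the outer kinetochore, had 297.0 with both knockdowns, 329.2 with Pontin siRNA, 385.5 with p53 shRNA and 377.7 with control shRNA. It too was lower on both arrays with Pontin siRNA, at -0.20 and -0.38 in log2. Its partners in the NDC80 complex did not share 1 pattern. NUF2 was at -0.21 and -0.05 for Pontin siRNA and SPC25 at -0.05 and -0.23. SPC24, the fourth subunit, had 206.4 with both knockdowns, 233.4 with Pontin siRNA, 183.9 with p53 shRNA and 199.9 with control shRNA, so it was higher with Pontin siRNA in both pairs, at 0.22 and 0.17.

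MAD2L1, the checkpoint protein that restrains CDC20, had signals of 2152.7 with both knockdowns, 2237.1 with Pontin siRNA, 2656.1 with p53 shRNA and 2401.7 with control shRNA. Its Pontin log2 ratios were -0.10 and -0.30, and in its 2 dimmer probe sets the first pair was above 0. BUB1, a checkpoint kinase at kinetochores, was nearly level in its brightest probe set, at 517.4 with both knockdowns, 518.4 with Pontin siRNA, 549.0 with p53 shRNA and 550.5 with control shRNA. BUB1B, which encodes BUBR1, had 783.9 with both knockdowns, 899.5 with Pontin siRNA, 910.7 with p53 shRNA and 822.7 with control shRNA. Each single knockdown read above control and the combination below it, so its ratios had opposite signs in the pairs of each knockdown. BUB3, which binds both BUB kinases, was at -0.04 and -0.06 for Pontin siRNA and at -0.07 and -0.08 for p53 shRNA.

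Of the same 12 genes, 11 had a mean p53 ratio below 0, as had 6098 of the 12066 genes kept and 4139 of the 7744 bright genes. Those of BUB1, SPC25, BUB1B and CENPF were small, at -0.0034, -0.02, -0.03 and -0.03. Below 0 in both p53 pairs were 6 of the 12, against 32.2% of the genes kept and 36.6% of the bright genes. CENPE, the kinesin that carries chromosomes to the spindle equator, had signals of 398.1 with both knockdowns, 470.7 with Pontin siRNA, 401.0 with p53 shRNA and 478.1 with control shRNA. The arrays with p53 shRNA were the low ones, at -0.25 and -0.24 in log2. By the smaller pair, those ratios were the largest below 0 in both pairs among the brightest probe sets of the list. CENPF, a kinetochore protein that accumulates in G2, had 984.3 with both knockdowns, 949.7 with Pontin siRNA, 829.9 with p53 shRNA and 893.7 with control shRNA, at 0.09 and 0.25 for Pontin siRNA. CENPA, the centromeric histone, was at 0.42 and 0.14 for Pontin siRNA and at -0.09 and -0.37 for p53 shRNA, with its highest signal, 365.9, on the Pontin siRNA array.

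Spindle motors and spindle proteins stayed near 0. KIF11, the motor that separates spindle poles, had signals of 401.5 with both knockdowns, 386.7 with Pontin siRNA, 388.8 with p53 shRNA and 364.8 with control shRNA. It was at 0.09 and 0.05 for p53 shRNA, above 0 in both pairs. TPX2, which activates Aurora A on the spindle, had 399.9 with both knockdowns, 435.7 with Pontin siRNA, 443.2 with p53 shRNA and 437.5 with control shRNA, and only the array with both knockdowns was lower. ASPM, a protein of spindle poles, had 1047.2 with both knockdowns, 1160.4 with Pontin siRNA, 1100.5 with p53 shRNA and 1223.0 with control shRNA, at -0.15 in each p53 pair. Dimmer ASPM probe sets had p53 ratios of 0.28 and -0.24, and of -0.17 and -0.15. The other 7 were DLGAP5, HMMR, KIF20A, KIF23, KIF2C, KIF4A and NUSAP1. In the brightest probe sets their Pontin ratios ran from -0.30, for DLGAP5 in the second pair, to 0.24, for HMMR in the second pair. Their p53 ratios there ran from -0.24, for HMMR, to 0.15, for KIF2C, both in the first pair. Dimmer probe sets went further, with p53 ratios of -0.37 and -0.41 for HMMR, -0.19 and -0.47 for KIF2C and -0.27 and 0.60 for KIF23. DLGAP5, a spindle assembly factor, was at -0.19 and -0.30 for Pontin siRNA, and HMMR, a microtubule-associated protein, at 0.13 and 0.24.

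Cytokinesis and chromosomal passenger genes had the lowest median p53 ratio of the 6 roles, -0.18, from 5 genes. Below 0 in both p53 pairs were 4 of the 5, against 32.2% of the genes kept and 36.6% of the bright genes. Of 3 other cytokinesis genes kept, 1 was below 0 in both p53 pairs, 1 above and 1 mixed, with a median of -0.0062. AURKB, the passenger kinase counted under another role, was at -0.15 and 0.03 for p53 shRNA. ANLN, the scaffold of the contractile ring, had signals of 2270.9 with both knockdowns, 2688.6 with Pontin siRNA, 2489.7 with p53 shRNA and 2916.9 with control shRNA. Its p53 log2 ratios were -0.23 and -0.24, and a second probe set gave -0.29 and -0.23. For Pontin siRNA the brighter ANLN probe set was at -0.12 and -0.13 and the dimmer at 0.17 and 0.24. BIRC5, which encodes the passenger subunit survivin, had 1122.0 with both knockdowns, 1349.0 with Pontin siRNA, 1052.2 with p53 shRNA and 1205.3 with control shRNA. It was at -0.20 and -0.27 for p53 shRNA, and of its 3 other probe sets 1 was below 0 in both p53 pairs, 1 above 0 in both and 1 mixed. PRC1, the microtubule bundler of the central spindle, had 1056.6 with both knockdowns, 1244.5 with Pontin siRNA, 1025.3 with p53 shRNA and 1114.2 with control shRNA, at -0.12 and -0.24 for p53 shRNA.

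ECT2, the exchange factor that activates RhoA for furrowing, had signals of 2867.7 with both knockdowns, 3055.5 with Pontin siRNA, 3339.3 with p53 shRNA and 3523.3 with control shRNA. It was lower with Pontin siRNA in both pairs, at -0.21 and -0.22 in log2, while a dimmer probe set gave 0.17 and 0.55. INCENP, the scaffold of the passenger complex, had 59.4 with both knockdowns, 78.0 with Pontin siRNA, 61.9 with p53 shRNA and 47.0 with control shRNA. Each single knockdown read above control, and the combination read below Pontin siRNA alone, from a single dim probe set. Its p53 ratios were 0.40 and -0.39 and its Pontin ratios 0.73 and -0.06. It was the only member at least 0.32 apart in log2 in both p53 pairs with opposite signs, which 3.55% of the genes kept also were.

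**Figure D3:**
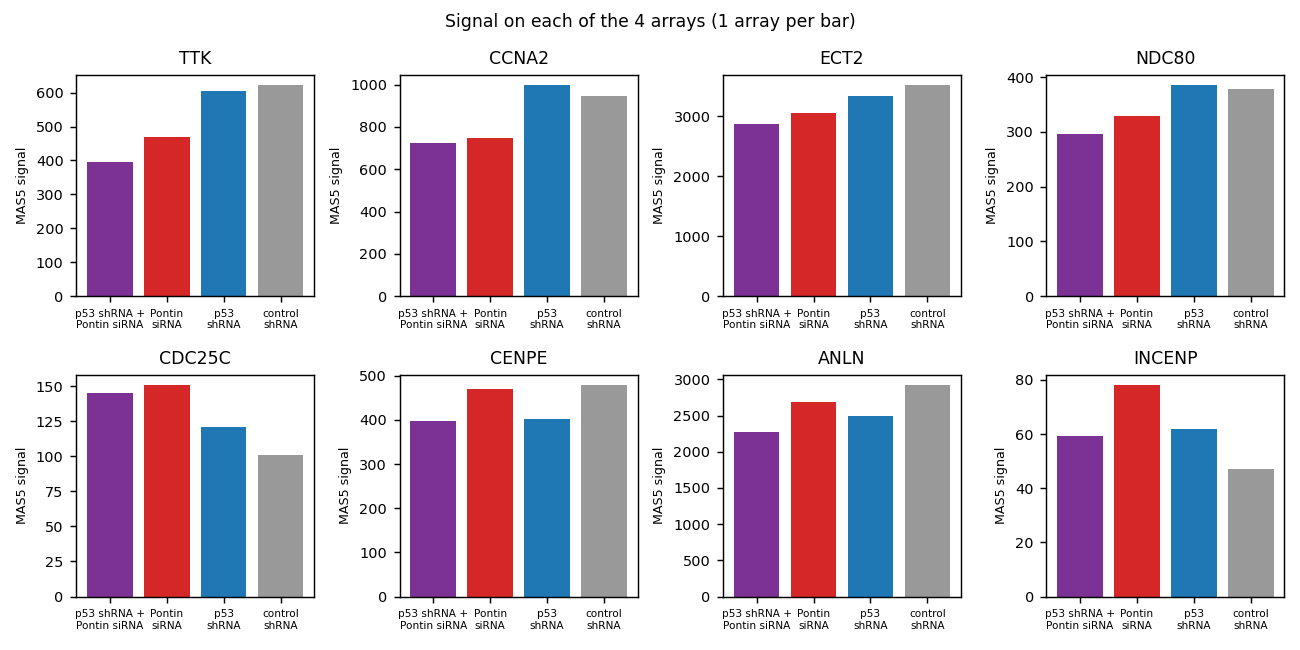
Deposited MAS5 signal (vertical, linear, from 0) of 8 members on the 4 arrays, 1 array per bar. TTK, CCNA2, ECT2 and NDC80 are lower on both arrays with Pontin siRNA, CDC25C is higher on both, CENPE and ANLN are lower on both arrays with p53 shRNA than on their partners, and INCENP is highest with Pontin siRNA alone.

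CDC20, the activator of the anaphase promoting complex, had signals of 1043.1 with both knockdowns, 1121.0 with Pontin siRNA, 953.7 with p53 shRNA and 1073.2 with control shRNA, at -0.17 and -0.10 for p53 shRNA. UBE2C, its ubiquitin-conjugating enzyme, had 2937.0 with both knockdowns, 2858.4 with Pontin siRNA, 2705.5 with p53 shRNA and 2630.9 with control shRNA. UBE2C was above 0 in all 4 ratios, at 0.12 in each Pontin pair and 0.04 in each p53 pair. PTTG1, which encodes securin, was at -0.08 and -0.10 for Pontin siRNA and at -0.08 and -0.11 for p53 shRNA. The substrate and the enzyme thus lay on opposite sides of 0, each by less than 0.13 in log2.

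MKI67, the marker of cycling cells, had signals of 424.4 with both knockdowns, 432.8 with Pontin siRNA, 369.7 with p53 shRNA and 461.0 with control shRNA. The array with p53 shRNA alone was lowest, at -0.32 in the first p53 pair, while the second p53 pair was at -0.03. Dimmer MKI67 probe sets had p53 ratios of -0.24 and 0.02, of 0.19 and -0.03, and of -0.26 and 0.28. TOP2A, the topoisomerase that untangles sister chromatids, had 5281.3 with both knockdowns, 4633.1 with Pontin siRNA, 4836.1 with p53 shRNA and 4683.7 with control shRNA, at 0.05 and 0.19 for p53 shRNA. FOXM1, a transcription factor that acts on many of these promoters, was flat, at 455.7 with both knockdowns, 466.4 with Pontin siRNA, 447.2 with p53 shRNA and 452.7 with control shRNA. For Pontin siRNA MKI67 was at -0.09 and 0.20, TOP2A at -0.02 and 0.13 and FOXM1 at 0.04 and 0.03. In the brightest probe sets all 3 thus had a mean Pontin ratio above 0, and no more than 0.06, as 6245 of the 12066 genes kept had one above 0. Dimmer probe sets differed, with mean Pontin ratios of -0.08 and 0.51 for TOP2A and of -0.09, -0.07 and 0.31 for MKI67.

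With both knockdowns over control shRNA, TTK was the only member at least 1.5-fold apart, at -0.65 in log2 or 1.57-fold lower, against 13.2% of the genes kept in either direction and 5.74% on the lower side. At the lower threshold of 0.32, TTK, CCNA2, NDC80 and ANLN were lower in their brightest probe sets, 4 of 42, against 14.9% of the genes kept. CDC25B, CDC25C and INCENP were higher, against 17.5%. For both knockdowns over control shRNA, second probe sets of ANLN, at -0.05, and CCNA2, at -0.3196, fell short of this threshold. That of CCNB1, at -0.36, passed it. This comparison shares its arrays with the pairs above. The departure from additivity, the log2 signal with both knockdowns minus that with each single knockdown plus that of control, had a median of -0.0146 over members and -0.0153 over all genes kept. INCENP, at -0.79, was the only member with a departure of at least 1.5-fold, against 13.1% of the genes kept, and CDK1, at 0.35, and BUB1B, at -0.35, were the only others past 0.32, against 28.3%. Next came CDC25C at -0.32, MKI67 at 0.29 and CDC25B at 0.26. The other CDK1 probe sets had departures of 0.11, -0.07 and -0.16, so the value of 0.35 was that of the brightest only.

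Probe sets of the same gene often differed by as much as these ratios. For 20 members, 53 probe sets were over the signal floor, and they all shared the sign of the mean p53 ratio in 10 members and of the mean Pontin ratio in 8. The median spread between the probe sets of a member was 0.25 for p53 shRNA and 0.20 for Pontin siRNA. The widest spread for p53 shRNA was that of AURKB, 0.81. Its dimmer probe set had signals of 13.8 with both knockdowns, 23.5 with Pontin siRNA, 13.8 with p53 shRNA and 27.1 with control shRNA. Those p53 ratios were -0.97 and -0.77, past 1.5-fold in both pairs, at a mean signal of 18.7. Dimmer probe sets of ECT2 (-0.89 and -0.51), HMMR (-0.37 and -0.41) and TOP2A (0.52 and 0.84) were past 0.32 in both p53 pairs. Past 0.32 in both Pontin pairs were dimmer probe sets of CDC25C (0.96 and 0.44) and TOP2A (0.35 and 0.67). The widest spread for Pontin siRNA was that of BIRC5, 0.62.

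**Figure D4:**
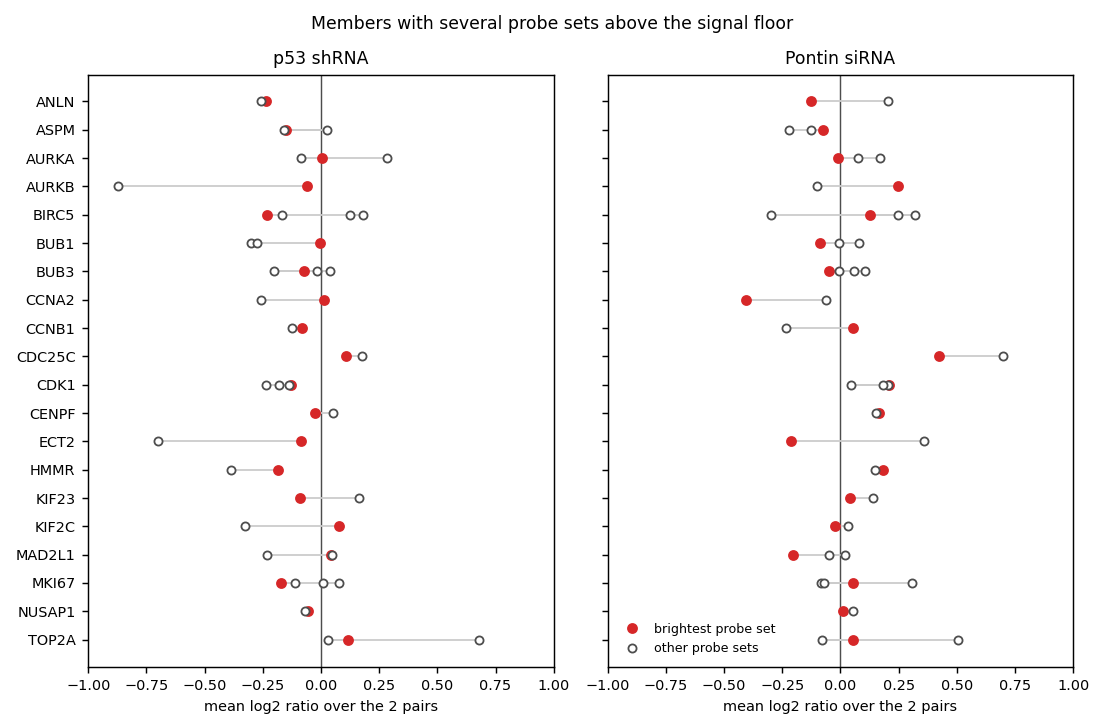
Mean log2 ratio over both pairs for each probe set over the signal floor, in the 20 members with several, for p53 shRNA (left) and Pontin siRNA (right). Filled points are the brightest probe set, used in the text, and open points the others; AURKB spreads by 0.81 for p53 shRNA and BIRC5 by 0.62 for Pontin siRNA.

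Members were also divided by their promoter letters. The 27 with CHR letters had a median mean p53 ratio of -0.06, and the 8 with a window but no CHR letters -0.09. For Pontin siRNA these medians were 0.03 and -0.02. By CCAAT boxes, the 20 members with at least 2 had a median p53 ratio of -0.09, the 9 with 1 had -0.03 and the 6 with none -0.07. For Pontin siRNA the medians were 0.05, 0.04 and -0.08 in that order. All 6 members without CCAAT had a mean Pontin ratio below 0 in their brightest probe sets, from -0.29 to -0.02. The same held for 5821 of the 12066 genes kept and 3917 of the 7744 bright genes. CENPE and KIF2C each had a mean of -0.02, and the dimmer probe sets of ANLN and KIF2C were above 0, at 0.21 and 0.03. BUB1B, at 0.13 and -0.22, and KIF2C, at 0.04 and -0.09, had opposite signs in the Pontin pairs. Their means were below 0 through the second pair only. BUB1B, CENPE, NDC80 and NUF2 are also kinetochore and checkpoint genes, so lack of CCAAT and role cannot be told apart here. The members with 1 CCAAT or with more spanned both signs. These differences were not tested.

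A wider list of 72 other mitotic genes, of which 70 were kept, was read in the same way. None was called for p53 shRNA, against 2.25% of the genes kept. The median mean p53 ratio of the 70 was -0.09, with 39 of 70 below 0 in both pairs (32.2% of the genes kept) and 12 above 0 in both (30.6%). For Pontin siRNA the median was 0.04, with 19 below 0 in both pairs (32.0% of the genes kept) and 31 above 0 in both (33.9%). The 1 gene called, of 70 and against 2.4% of the genes kept, was CENPM, a subunit of the constitutive centromere network, with signals of 107.1 with both knockdowns, 170.2 with Pontin siRNA, 294.4 with p53 shRNA and 311.0 with control shRNA. It fell by 0.87 and by 1.46 in log2 in the Pontin pairs. Among genes not called, the kinetochore gene MIS12 was at -0.37 and -0.50 for Pontin siRNA, ANAPC4, a subunit of the anaphase promoting complex, at -0.52 and -0.50, and FBXO5, which encodes its inhibitor EMI1, at -0.32 and -0.54. On the other side, WEE1, the kinase that opposes CDC25, was at 0.38 and 0.50, and HASPIN, the kinase of histone H3 at centromeres, at 0.38 and 0.61. Of the kinetochore and centromere genes, PMF1 was at 0.35 and 0.34 for Pontin siRNA and SGO1 at 0.21 and 0.55.

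Of the 8 condensin genes, whose products compact mitotic chromosomes, 7 were below 0 in both p53 pairs (32.2% of the genes kept). Their median mean p53 ratio was -0.18, and none was called for p53 shRNA, against 2.25% of the genes kept. The condensin subunit gene NCAPH was at -0.27 and -0.36 for p53 shRNA, and NCAPG2, a condensin II subunit gene, was at 0.55 and 0.66 for Pontin siRNA, while SMC2, which encodes an ATPase core subunit of condensin, was at -0.23 and -0.57. The 12 regulators that act on these promoters, the MuvB, MYB and DREAM genes, had medians of -0.14 for p53 shRNA and 0.10 for Pontin siRNA. For Pontin siRNA, 7 of these 12 were above 0 in both pairs (33.9% of the genes kept) and 4 below 0 in both (32.0%). MYBL2, which encodes the activator B-MYB, was at 0.37 and 0.43 for Pontin siRNA, E2F5 at -0.33 and -0.26 and LIN54 at -0.12 and -0.56. The 3 NF-Y subunits had a median of -0.11 for p53 shRNA and of -0.03 for Pontin siRNA. NFYA, the subunit that contacts CCAAT, was at -0.21 and -0.35 for Pontin siRNA. NFYB, at 0.08 and -0.13, and NFYC, at 0.11 and -0.02, had opposite signs in the Pontin pairs.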

How the data were processed

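RNA was measured in SK-BR-3 cells on 4 arrays of 54675 probe sets, 1 array per group, with groups taken from the sample titles. Per the submitters' processing notes, which give no version, the deposited values are MAS5 signals, a linear intensity per probe set. The mean signal without the lowest and highest values was 150.02 on every array of the deposited table, so the authors had scaled the arrays to 1 level. The small number of arrays limits precision.

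Gene symbols came from the platform annotation and were brought up to date from a RefSeq gene table. Of the probe sets, 41097 had 1 gene symbol (41043 matched), 1801 had several and 11777 had none, and only the first kind was used. Values were taken as log2 with no pseudocount, after 14 signals of 0, none in a member, were set to 0.1. A gene was kept where its mean reached 15.31, the median over all probe sets. The transcript that the p53 shRNA targets is not reported here. Levels of different genes were not ranked, and marker signals were summed only to compare arrays.

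The members and lists were chosen with earlier results of these data known. Signals are given for called members, the 4 members with the largest smaller-pair ratio in each direction for each knockdown, the 3 highest and 3 lowest departures from additivity, and 16 landmark genes, 29 members in all. From the other lists, called genes and at most 2 per direction were eligible. Members outside this rule that are singled out were chosen after their values were seen. Alternatives covered normalization, a pseudocount of 16, the probe set, the filter, the fold, the array with both knockdowns and an additive limma fit. The fold rule and the fit were tested on simulated data. Python 3.11.15 with pandas 2.3.3 and R 4.3.3 with limma 3.58.1 were used.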

Additional observations from a re-analysis of the deposited data

Results flagged for a closer look

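INCENP drew attention because its p53 ratio differed in sign between the 2 backgrounds. The log2 ratio was 0.40 for p53 shRNA over control shRNA and -0.39 for both knockdowns over Pontin siRNA, a departure from additivity of -0.79. Each ratio rests on 1 array over 1 array and on a single probe set with signals of 47.0 to 78.0, and the difference was not tested.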

How the results depend on the processing

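No member was called for p53 shRNA under any alternative run. For Pontin siRNA the count was 2 at the lower threshold of 0.32 in log2 (TTK and CCNA2) and 1 (INCENP) when the array with both knockdowns was left out, which leaves 1 pair, and 0 otherwise. The median member p53 ratio was -0.0547 over the 29 members with a probe set free of the types marked for possible cross-hybridization, and below 0 in every alternative. The median Pontin ratio had no stable sign. It was 0.034 with the mean over a gene's probe sets (0.04 over all genes), -0.0437 over those 29 members and -0.0128 over bright members. The median departure was 0.0034 after median centring and -0.0548 over the 29 members. The cause of these shifts was not tested, beyond the change of genes and probe sets compared. Without the array with both knockdowns the medians were -0.07 for p53 shRNA and -0.0015 for Pontin siRNA. A pseudocount of 16 cut the calls over all genes to 107 from 271 for p53 shRNA and to 130 from 290 for Pontin siRNA, and no filter on signal raised them to 1907 and 1921. The additive limma fit, which takes the pairs as replicates with 1 residual degree of freedom, called 0 of 12066 genes for either knockdown at an adjusted p of 0.05. At an unadjusted p under 0.05 it held 1390 genes and 0 members for p53 shRNA, and 1737 genes and 3 members (TTK, CCNA2 and CDC25C) for Pontin siRNA. Averaging a gene's probe sets turned the sign of the mean Pontin ratio in 7 of the 29 members described by signal and of the mean p53 ratio in 4. No paired analysis was possible because the labels carry no replicate numbers and each group has 1 array. Dim probe sets, INCENP and PLK1 among them, limit what can be read.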

Other observations

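Genes of the preceding cell cycle step, G1/S and DNA replication, were measured on the same arrays. Of 33 listed genes, 32 were kept. None was called for p53 shRNA, against 2.25% of all genes kept, or for Pontin siRNA, against 2.4%. For p53 shRNA the median mean log2 ratio of the 32 was -0.15, with 21 below 0 in both pairs (32.2% of all genes kept) and 5 above 0 in both (30.6%). FEN1, the flap endonuclease of lagging strand synthesis, had signals of 1836.8 with both knockdowns, 2478.9 with Pontin siRNA, 1795.5 with p53 shRNA and 2305.3 with control shRNA, so both arrays with p53 shRNA were the low ones, at -0.36 and -0.43. GINS2, a subunit of the replicative helicase, was at -0.47 and -0.30, while ORC6, a subunit of the origin recognition complex, was at 0.28 and 0.59.

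For Pontin siRNA the median over these genes was 0.09, with 10 below 0 in both pairs (32.0% of all genes kept) and 17 above 0 in both (33.9%). TK1, thymidine kinase, had signals of 2455.3 with both knockdowns, 2683.6 with Pontin siRNA, 1695.3 with p53 shRNA and 1914.4 with control shRNA, at 0.49 and 0.53 in log2. CCNE2, which encodes the G1/S cyclin E2, was on the other side, at 160.4 with both knockdowns, 188.7 with Pontin siRNA, 227.9 with p53 shRNA and 245.2 with control shRNA, or -0.38 and -0.51 in log2. Both CCNE2 signals with Pontin siRNA were below both without it, as were those of TTK and of the brighter CCNA2 probe set.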
